A study of Mus musculus with 2 samples.

Results

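The endothelial cells that line the capillaries of the brain, and the blood-brain barrier they form, were followed in the hippocampus through 10 genes chosen by name: Cldn5, Flt1, Kdr, Pecam1, Tek, Slco1a4, Abcb1a, Ly6c1, Slc2a1 and Mfsd2a. All 10 were found among the 55536 mouse genes of the gene tables, each under 1 identifier. The rule that picks them uses names and no measured value, though the list was drawn up with earlier results of these data known. The data were total RNA-seq libraries from 2 male B6CASTF1/J mice aged 36 days, the offspring of a cross of the B6 and CAST strains, and the study had this 1 group only. Each library was made from 300 ng of RNA with ERCC spike-in transcripts added. The tissue label names a layer of hippocampus without saying which part was dissected. Both samples carry the same donor identifier, so that they are 2 animals rests on their separate biosamples and biological replicate numbers. Nothing was treated, mutated or sorted, so the only difference between samples that can be described is the one between replicate 1 and replicate 2.

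Brain capillaries differ from most others in that their endothelial cells are sealed to each other by tight junctions and carry little across in vesicles, so that nutrients must pass through transporters and many lipid-soluble compounds are pumped back into the blood. Pericytes in the capillary wall and the end-feet of astrocytes help to induce and keep this state. Vascular endothelial growth factors and angiopoietins, made largely by the cells around the vessel, act on receptor tyrosine kinases that are nearly restricted to the endothelium.

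The replicate 1 library held 28786216 expected counts and the replicate 2 library 29755033. An expected count is the number of reads that the authors' quantification assigned to a gene, and TPM, the usual measure of level, is that number per length of transcript, scaled to the library's total. Ratios between the libraries were taken from counts scaled by TMM, always replicate 1 over replicate 2, and each gene was tested with an exact two-sided binomial test, adjusted by the Benjamini-Hochberg method over 18270 genes with a mean count of at least 10. With a single library from each animal these p-values and the 95% intervals cover counting error alone and compare 2 libraries, not conditions, and since no molecular identifiers are described, reads may be copies of one another. The largest difference between the libraries among the lists examined was in markers of the choroid plexus, the epithelium that secretes cerebrospinal fluid. Its 10 markers summed to 10.2 TPM in replicate 1 and 195 TPM in replicate 2, and all 9 that could be tested were higher in replicate 2 by the adjusted p. None of the 10 was at 0 in both libraries.

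Every one of the 10 genes was at or above 1 TPM in both libraries, so that the markers of brain endothelium were detected in each animal. Over all annotated genes the share was 26.8%, but that background also counts genes that are not protein-coding, and all 10 are protein-coding. Expected counts of the 10 ran from 258 for Tek in replicate 2 to 2474 for Slc2a1 in replicate 2. Slc2a1 was the highest at 35.7 ± 7.64 TPM (mean ± SD, n = 2, as for all such values here), followed by Ly6c1 at 28.1 ± 2.71, Cldn5 at 19.3 ± 3.78 and Mfsd2a at 18.0 ± 4.05 TPM. Flt1 at 16.0 ± 0.127 and Slco1a4 at 15 ± 0.877 TPM came next, then Abcb1a at 7.01 ± 0.863 and Pecam1 at 6.70 ± 0.573 TPM. The receptors Tek, at 3.19 ± 0.693 TPM, and Kdr, at 2.88 ± 0.665 TPM, were the lowest. Neighbours in this order whose ranges over the libraries overlapped were Cldn5 and Mfsd2a, Mfsd2a and Flt1, Abcb1a and Pecam1, and Tek and Kdr. Among protein-coding genes at 1 TPM or more, Slc2a1 stood above 77.0% and Kdr above 11.5%. In bulk tissue a smaller number of endothelial cells and less RNA per cell cannot be told apart, and both would move such levels.

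**Figure D1:**
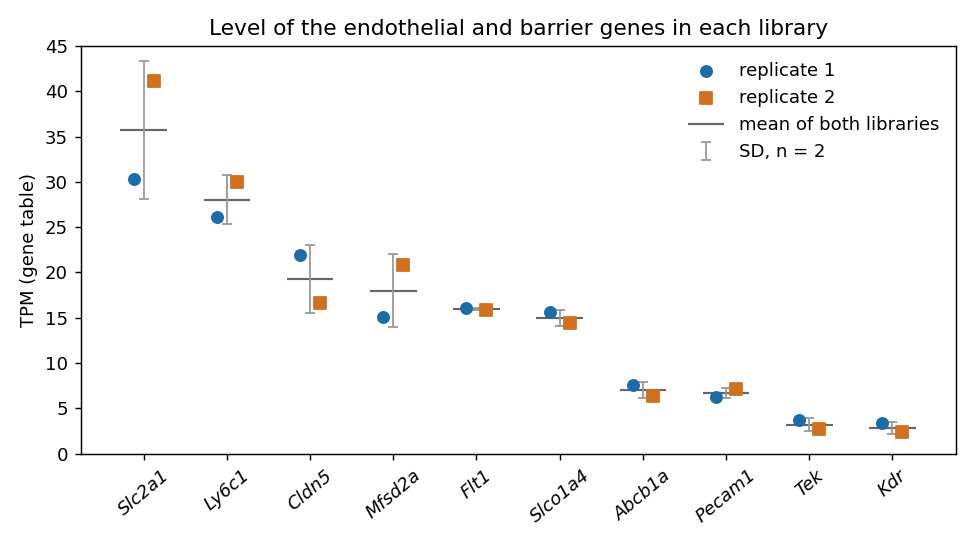
Level of each gene in TPM (vertical axis) in replicate 1 (blue circles) and replicate 2 (orange squares), with the mean as a line and the SD of the 2 libraries as a bar. Slc2a1 and Mfsd2a lie lower in replicate 1, at 30.3 and 15.1 TPM, than in replicate 2, at 41.1 and 20.9 TPM, while both libraries nearly coincide for Flt1.

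Among the receptors, Flt1 encodes VEGF receptor 1, which binds VEGF-A tightly but signals weakly and holds the ligand away from VEGF receptor 2. The gene lies on the minus strand of chr5:147561604-147726011 (mm10, GENCODE M21). Its counts were 1880 in replicate 1 and 1858 in replicate 2, and its levels 16.1 and 15.9 TPM. The libraries did not differ beyond counting error, with replicate 1 at 1.04 times replicate 2 (95% interval 0.976 to 1.11, adjusted p = 0.551, exact binomial test with Benjamini-Hochberg adjustment).

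Behind this even total, Flt1 RNA was divided between a membrane form and a soluble form. Flt1-202, with 30 exons, 6895 bases and 1333 codons, encodes the whole receptor with its membrane-spanning segment and kinase. Flt1-203, with 13 exons, 6292 bases and 688 codons, ends before those parts and encodes the secreted decoy known as soluble VEGF receptor 1. The forms part at exon 13, which is 309 bases long in the membrane form, where it is spliced to exon 14 at chr5:147634377-147634523. In the soluble form the splice site is read through and exon 13 runs on for 4375 bases in all. The sequences on both sides of this junction are given because they are what tells the forms apart in the reads. The 30 lower-case bases end exon 13 of the membrane form and are shared, and the capitals are the 95 bases that follow in each form (chr5, minus strand, GENCODE M21 transcripts of the mm10 reference; the CAST allele was not examined).

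Flt1-203 (soluble, chr5:147639130-147639254): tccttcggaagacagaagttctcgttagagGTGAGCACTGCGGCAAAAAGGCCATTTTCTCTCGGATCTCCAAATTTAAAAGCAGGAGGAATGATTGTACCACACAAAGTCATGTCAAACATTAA

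Flt1-202 (membrane, chr5:147639225-147639254 joined to chr5:147634429-147634523): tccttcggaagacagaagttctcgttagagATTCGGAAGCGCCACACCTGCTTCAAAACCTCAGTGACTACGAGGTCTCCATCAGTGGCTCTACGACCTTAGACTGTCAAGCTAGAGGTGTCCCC

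The soluble form reads on into the intron, adds 31 codons and ends at the stop codon TAA that closes its line. The membrane form goes over to exon 14 at the same point. Both forms share 2226 bases. Flt1-202 has 4495 bases that are in no other Flt1 transcript and Flt1-203 has 4066, which is most of each form. The 4066 bases of Flt1-203 lie in an intron of the membrane form. Total RNA can also hold unspliced Flt1 RNA, whose reads in that intron may be counted as the soluble form. The part of such reads in the soluble values was not tested.

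**Figure D2:**
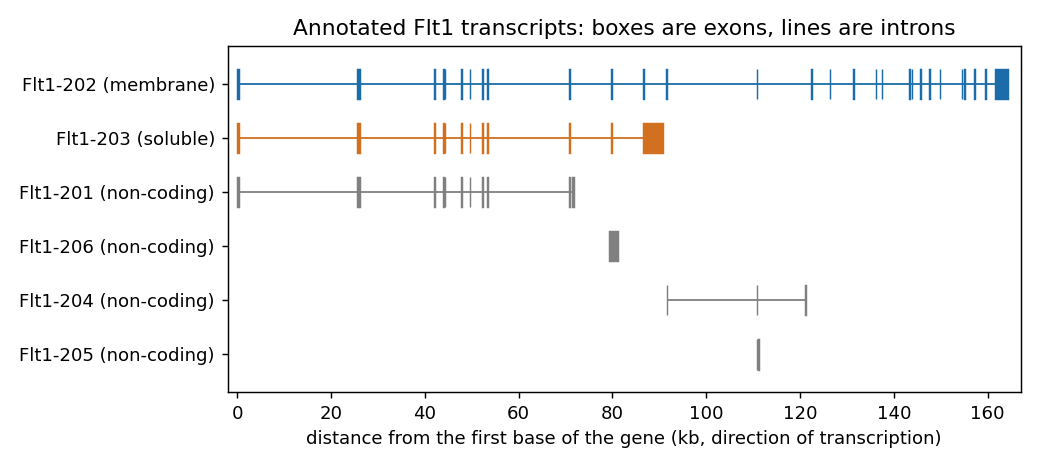
Exons (boxes) and introns (lines) of the 6 annotated Flt1 transcripts along the gene, in kb from its first base in the direction of transcription. The soluble form (orange) shares its exons with the membrane form (blue) as far as exon 13, which it extends.

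In the first transcript table, the membrane form made up 51.0% of Flt1 TPM in replicate 1 and 44.1% in replicate 2, and the soluble form 29.8% and 32.8%. The remainder lay in transcripts annotated as non-coding: Flt1-201, a processed transcript that overlaps the 5' exons, with 17.0% and 17.9%, the retained intron Flt1-206 with 2.20% and 1.82%, Flt1-205 with 0% and 3.44%, and Flt1-204 with 0% in both. The second table gave Flt1-201 a smaller share, 8.502% and 8.74%. The membrane form was thus the larger in both animals, at 1.71 times the soluble form in replicate 1 and 1.35 times in replicate 2. Flt1-202 had 8.20 TPM in replicate 1 with a deposited interval from 7.39 to 8.47, and 7.02 TPM in replicate 2 with an interval from 6.31 to 7.29. Flt1-203 had 4.79 TPM (4.19 to 5.09) and 5.21 TPM (4.59 to 5.52). The intervals of the libraries did not overlap for the membrane form and overlapped for the soluble form; they are the authors' interval bounds for each library, of a level not given in the sources used here, and the difference was not tested. Expected counts were 1146 ± 20.5 and 1029 ± 20.2 for Flt1-202 and 610 ± 17.3 and 696 ± 19.0 for Flt1-203, where ± is the authors' posterior standard deviation within a library.

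The soluble share averaged 31.3 ± 2.08% of Flt1 TPM in the first table. In the second table, which covers the same libraries, it was 32.4% in replicate 1 and 36.5% in replicate 2, or 34.5 ± 2.90%. Over coding transcripts alone it was 36.9% and 42.6% in the first table and 37.2% and 41.6% in the second. In each of these 3 further measures, as in the main one, the share was lower in replicate 1, and the soluble form remained the smaller of both coding forms.

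**Figure D3:**
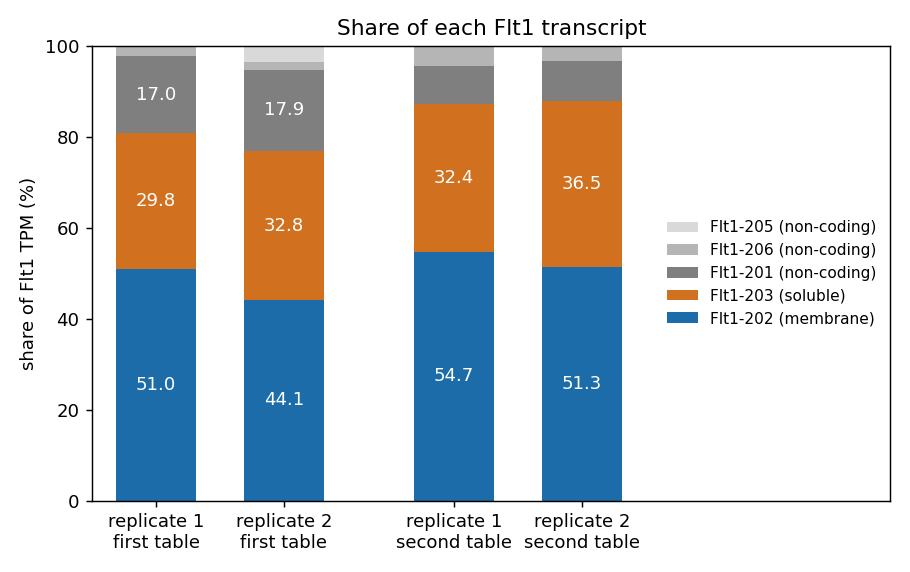
Share of Flt1 TPM held by each transcript (vertical axis, percent) in replicate 1 and replicate 2, in the first and in the second transcript table; Flt1-204, at 0, is left out. The soluble form (orange) takes 29.8% to 36.5% of a bar and the membrane form (blue) 44.1% to 54.7%.

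Kdr encodes VEGF receptor 2, the main signalling receptor for VEGF-A in endothelium, and lies on the minus strand of chr5:75932827-75978458. It had 397 counts and 3.35 TPM in replicate 1 and 299 counts and 2.41 TPM in replicate 2. Replicate 1 was the higher by 1.37-fold (95% interval 1.17 to 1.59, adjusted p = 0.000993, exact binomial test with Benjamini-Hochberg adjustment). Per length, Flt1 RNA stood at 4.80 times that of Kdr in replicate 1 and 6.60 times in replicate 2, and the membrane form of Flt1 alone at 2.45 and 2.91 times. In the second table the ratio of Flt1 to Kdr was 4.63 and 5.64. The decoy receptor gene thus exceeded the signalling receptor gene in both libraries and both tables. Kdr-201, the coding form, held 96.8% and 96.3% of Kdr TPM.

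Tek encodes TIE2, the receptor of the angiopoietins, which steadies quiescent vessels. It lies on the plus strand of chr4:94739289-94874976 and had 335 counts and 3.68 TPM in replicate 1, against 258 counts and 2.7 TPM in replicate 2. The gene was 1.33-fold higher in replicate 1 (1.13 to 1.58, adjusted p = 0.00688, exact binomial test with Benjamini-Hochberg adjustment). Tie1, the orphan partner of TIE2, was at nearly the same level, 3.48 and 2.82 TPM, so that the ratio of Tek to Tie1 was 1.06 in replicate 1 and 0.957 in replicate 2. The estimated split of Tek among its coding transcripts differed between the libraries. Tek-203 had 72.1% and 43.1%, Tek-201 27.9% and 19.2%, and Tek-202 0% and 37.8%, where the second table gave Tek-202 0% and 12.6%. The Tek-202 interval of 0.343 to 1.67 TPM in replicate 2 overlapped the one in replicate 1, whose upper bound was 0.971 TPM.

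The ligands of these receptors and their co-receptors were measured beside them. Vegfa, the main VEGF ligand, was at 34.6 TPM in replicate 1 and 39.2 TPM in replicate 2, which is 2.15 and 2.46 times the level of Flt1. Vegfb, whose product binds VEGF receptor 1, had 35.1 and 32.7 TPM, and the co-receptors Nrp1 and Nrp2 had 42.1 and 47.7 TPM and 23.4 and 26.2 TPM. The placental growth factor gene Pgf (1.67 and 1.79 TPM), the lymphatic growth factor gene Vegfc (1.56 and 1.58 TPM) and the angiopoietin genes Angpt1 (1.38 and 1.26 TPM) and Angpt2 (0.51 and 0.59 TPM) were all low, as was Flt4, encoding VEGF receptor 3 (0.84 and 0.96 TPM). Ptprb, which encodes the phosphatase that restrains TIE2, had 7.39 and 6.03 TPM. Of the 15 ligand and receptor genes, 4 were higher in replicate 1 by the adjusted p (Kdr, Tek, Ptprb and Vegfd) and 3 in replicate 2 (Vegfa, Nrp1 and Nrp2). Over all genes tested 4.73% passed towards replicate 1 and 6.64% towards replicate 2, together 11.4%, and 16.1% of genes averaging 200 counts or more passed. These shares are the background for the counts of each list. Vegfd, another lymphatic growth factor gene, was the only one of the 15 to reach 1.5-fold with an adjusted p under 0.05, on 51 counts in replicate 1 and 26 in replicate 2.

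Of the junction and adhesion genes, Cldn5 encodes claudin-5, the main sealing protein of the barrier's tight junctions. The gene is a single exon of 1416 bases with 218 codons on the plus strand of chr16:18776847-18778262, so no choice among transcripts enters its value. It had 595 counts and 21.97 TPM in replicate 1 and 472 counts and 16.6 TPM in replicate 2. It was 1.30-fold higher in replicate 1 (1.147 to 1.47, adjusted p = 0.000586, exact binomial test with Benjamini-Hochberg adjustment). Cldn3, a claudin whose presence at this barrier has been debated, had 0.59 and 0.24 TPM on 14 and 6 counts.

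Pecam1, which encodes the adhesion molecule CD31 of endothelial borders, lies on the minus strand of chr11:106654217-106750628. It had 398 counts and 6.29 TPM in replicate 1 and 436 counts and 7.10 TPM in replicate 2, and replicate 2 was the higher by 1.07-fold (0.928 to 1.22, adjusted p = 0.693, exact binomial test with Benjamini-Hochberg adjustment), which is within counting error. The tables did not give the same transcripts for it. Pecam1-203 had the largest estimate in the first table with 51.5% and 34.1% of the gene's TPM. Pecam1-202 had 24.9% and 21.4%, Pecam1-207 21.1% and 21.2%, and Pecam1-205 0% and 11.1%. The deposited intervals of Pecam1-203 (0.803 to 3.833 and 1.045 to 3.262 TPM) overlapped those of Pecam1-202 (0.2342 to 3.431 and 0.3765 to 2.549 TPM) in both libraries. In the second table Pecam1-204 had 32.0% and 35.1%, the retained introns Pecam1-206 and Pecam1-208 had 32.8% and 8.34% and 16.5% and 18.2%, and Pecam1-203 had 9.86% and 17.5%.

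Among the other junction genes, the scaffold gene Tjp1 (ZO-1) was at 60.2 TPM in replicate 1 and 65.5 TPM in replicate 2, Cldn12 at 11.0 and 10.6, Jam2 at 9.31 and 8.38, Ocln (occludin) at 5.12 and 5.31, and Cdh5 (VE-cadherin) at 4.80 and 3.61 TPM. Of the 13 junction genes, Cldn5 passed the adjusted p towards replicate 1, Tjp1 towards replicate 2, and 11 did not pass. The median log2 ratio of the 13 was 0.06, against 0.00 over all genes tested.

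Slc2a1, the first of the transporters, encodes GLUT1, which carries glucose across the barrier and is also made by astrocytes. It lies on the plus strand of chr4:119108711-119137983 and had 1744 counts and 30.3 TPM in replicate 1 and 2474 counts and 41.1 TPM in replicate 2. The gene was 1.38-fold higher in replicate 2 (1.30 to 1.47, adjusted p = 8.66e-23, exact binomial test with Benjamini-Hochberg adjustment). The neuronal glucose transporter gene Slc2a3 (GLUT3) was above it in replicate 1 and close to it in replicate 2, at 46.0 and 43.6 TPM, and Slc2a4 (GLUT4) had 0.69 and 0.73 TPM. The full coding transcript Slc2a1-201 held 68.5% and 65.2% of the gene's TPM in the first table and 40.1% and 40.03% in the second. Slc2a1-204, annotated as a target of nonsense-mediated decay, held 29.0% and 33.8% there and 26.8% and 29.9% in the second table. The second table put a further 29.95% and 26.1% in the short Slc2a1-203 of 633 bases, which had 1.42% and 0% in the first. The tables thus gave the decay target a like share, and the share of Slc2a1-203 is uncertain.

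Mfsd2a encodes the carrier that brings the omega-3 fatty acid DHA, bound to lysophosphatidylcholine, into the brain and holds vesicle traffic through the endothelium low. On the minus strand of chr4:122946850-122961188, it had 588 counts and 15.1 TPM in replicate 1 and 885 counts and 20.9 TPM in replicate 2. With 1.46-fold more in replicate 2 (1.32 to 1.63, adjusted p = 4.61e-11, exact binomial test with Benjamini-Hochberg adjustment), it was the gene of the 10 that lay farthest towards replicate 2. The interval reaches past 1.5-fold. The ratio of Mfsd2a to Cldn5 was accordingly 0.689 in replicate 1 and 1.26 in replicate 2, so the order of this pair turned round between the animals. Mfsd2a-201 held 90.6% and 94.9% of the gene's TPM. The related Mfsd2b had 0.27 and 0.22 TPM.

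Slco1a4 encodes the organic anion transporter OATP1A4, which takes up bile acids, hormones and drugs, and lies on the minus strand of chr6:141805440-141856199. It had 870 counts and 15.6 TPM in replicate 1 and 777 counts and 14.4 TPM in replicate 2, 1.152-fold higher in replicate 1 (1.04 to 1.27, adjusted p = 0.0401, exact binomial test with Benjamini-Hochberg adjustment). The call was lost with ERCC scaling (adjusted p = 0.115), with no count minimum (0.0589) and in the second table (0.130). Of its neighbours in the same family, Slco1a1 was listed at 0 in both libraries, Slco1a5 had 0.02 and 0 TPM, and Slco1a6 had 0.54 and 0.39 TPM, so Slco1a4 was the highest of these 4 genes. Slco1c1, the thyroid hormone transporter gene beside them, was higher than Slco1a4 at 22.8 and 22.7 TPM. Slco1a4-203 held 62.7% and 57.5% and the short Slco1a4-202 28.3% and 35.6% of the gene's TPM, and the second table gave Slco1a4-201 18.5% and 11.9%.

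Abcb1a encodes the mouse form of the drug efflux pump P-glycoprotein found in brain capillaries and lies on the plus strand of chr5:8660077-8748575. It had 762 counts and 7.62 TPM in replicate 1 and 672 counts and 6.40 TPM in replicate 2, 1.17-fold higher in replicate 1 (1.05 to 1.30, adjusted p = 0.0335, exact binomial test with Benjamini-Hochberg adjustment). With ERCC scaling (0.0920) and in the second table (0.0525) the adjusted p of this test was above 0.05. Abcb1b, the other mouse P-glycoprotein gene, was lower with 2.25 and 1.38 TPM, so Abcb1a stood at 3.39 times its level in replicate 1 and 4.64 times in replicate 2. These ratios depend on the estimated length of Abcb1b, which was 1942 bases in replicate 1 and 2490 in replicate 2. Its counts were 85.4 and 71.4. Abcb1a-201 held 98.4% and 98.6% of the gene's TPM. The coding sequences of these genes are identical at 3367 of 3840 aligned positions (87.7%), and 9.23% of the 100-base windows of Abcb1a transcripts also occur in another gene, mostly Abcb1b. The authors' posterior standard deviation for Abcb1a was nevertheless small, 3.78 and 3.11 counts.

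The barrier transport list as a whole holds 15 genes, all at 1 TPM or more in both libraries. By the adjusted p, 4 were higher in replicate 1 (Slco1a4, Abcb1a, the monocarboxylate transporter gene Slc16a1 and the transferrin receptor gene Tfrc), 4 in replicate 2 (Slc2a1, Mfsd2a, the efflux pump gene Abcc4 and the amino acid transporter gene Slc7a5), and 7 did not pass. Tfrc was at 26.4 TPM in replicate 1, against 22.1 TPM in replicate 2, Slc7a5 23.7 and 27.8 TPM, and its partner Slc3a2, the highest of the list, 58.8 and 59.1 TPM. The transporters thus did not move together: the median log2 ratio of the 15 was -0.02, and that of the 4 among the 10 genes was -0.13, with 2 on each side.

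Ly6c1 encodes a small protein anchored to the outer cell membrane, abundant on mouse brain capillaries and also on some white blood cells. It lies on the minus strand of chr15:75044018-75048830. It had 370 counts and 26.1 TPM in replicate 1 and 464 counts and 29.97 TPM in replicate 2, 1.22-fold higher in replicate 2 (1.06 to 1.40, adjusted p = 0.0417, exact binomial test with Benjamini-Hochberg adjustment). This call did not hold with no count minimum (adjusted p = 0.0612) or in the second table (0.0773). Its near copy Ly6c2 is the gene with which reads are most easily confused: the coding sequences are identical at 384 of 393 positions (97.7%). The first 120 coding bases show how few sites separate them in the reference, and the 6 that differ are in capitals (chr15, minus strand, GENCODE M21 transcripts of mm10). The CAST alleles were not examined, and their part in the split of reads between these genes was not tested.

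Ly6c1-201: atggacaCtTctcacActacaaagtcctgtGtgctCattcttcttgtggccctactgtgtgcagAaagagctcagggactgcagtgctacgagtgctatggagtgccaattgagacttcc

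Ly6c2-204: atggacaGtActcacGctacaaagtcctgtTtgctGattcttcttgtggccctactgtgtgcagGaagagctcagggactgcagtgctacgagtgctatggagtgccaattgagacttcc

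All 6 differences fall in the first part of this stretch and the bases after them are the same in both genes. Ly6c2 was estimated at 1.54 TPM in replicate 1 and 1.58 TPM in replicate 2, so Ly6c1 stood at 17.0 and 19.0 times its level. Of the 100-base windows of Ly6c1 transcripts, 10.1% also occur in another gene, mostly Ly6c2. The authors' posterior standard deviation for Ly6c1 was 2.84 and 3.54 counts. The tables differed by more than this deviation, since the second gave Ly6c1 249.7 counts in replicate 1 and 318.5 in replicate 2. It gave Ly6c2 42.8 and 58.1 counts, against 25.2 and 36.0 in the gene table. Within Ly6c1 the tables disagreed about the transcript, with Ly6c1-201 at 83.9% and 75.4% in the first table and Ly6c1-202 at 45.9% and 71.0% in the second. The shorter Ly6c1-204 had 6.55% and 4.45% in the first table and 5.92% and 12.2% in the second, and Ly6c1-207 had 0% in the first and 13.4% and 12.2% in the second. Ly6a, which encodes a related surface protein, had 8.65 and 11.7 TPM.

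Read together, 0 of the 10 genes differed by 1.5-fold or more with an adjusted p under 0.05, against a background of 346 of all 18270 genes tested (1.89%; 0.662% higher in replicate 1 and 1.23% higher in replicate 2). In the second table the count was also 0 of 10, against 1.57%. By the adjusted p alone 8 of the 10 differed, against 11.4% of all genes, and the unadjusted p was under 0.05 for the same number, 8, against 21.8%. The 10 all exceed a mean count of 200, where small differences pass more easily. Among genes with a mean count of at least 200, 16.1% passed the adjusted p and 99.5% lay within 1.5-fold. The share of such genes that reached 1.5-fold was thus below 1.89%. For that reason 0 of 10 does not set these genes apart from others of like count. The 5 towards replicate 1 were Kdr, Tek, Cldn5, Abcb1a and Slco1a4 (background 4.73%), the 3 towards replicate 2 were Mfsd2a, Slc2a1 and Ly6c1 (background 6.64%), and Flt1 and Pecam1 did not pass. The median log2 ratio was 0.13 and ran from -0.55 to 0.45, and the median of its absolute value was 0.33, against 0.11 over all genes and 0.07 over genes with a mean count of at least 200. These counts describe the list and carry no test of it. By role, the 3 receptors all had ratios above 0, while the 4 transporters were divided, and their summed level was 68.7 TPM in replicate 1 and 82.8 TPM in replicate 2.

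**Figure D4:**
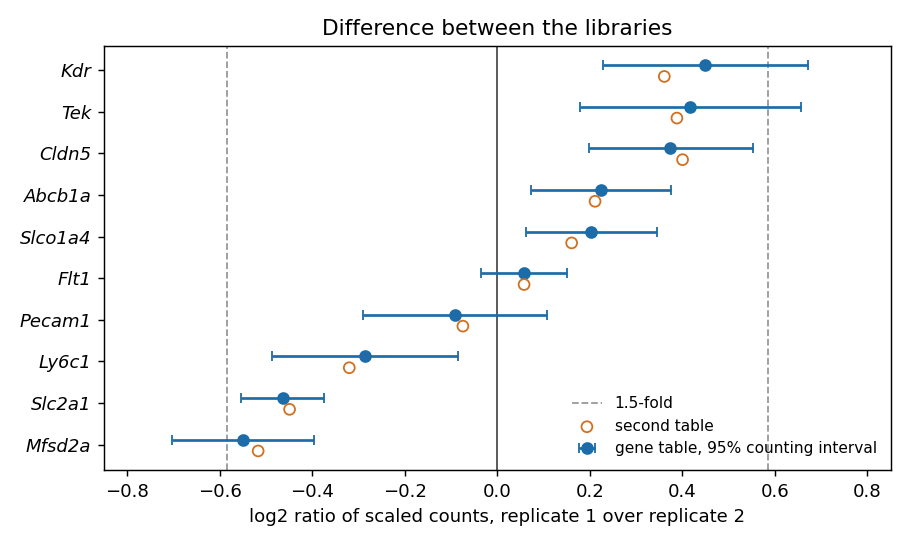
Log2 ratio of scaled counts, replicate 1 over replicate 2 (horizontal axis), for each gene in the gene table with its 95% counting interval (filled) and in the second table (open); dashed lines mark 1.5-fold. Kdr lies farthest to the right at 0.45 and Mfsd2a farthest to the left at -0.55, and each open circle lies on the same side of 0 as its filled one.

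The second table gave all 10 ratios of counts the same sign (its TPM put Pecam1 higher in replicate 1, at 17.1 against 14.1, and Slco1a4 level, at 24.7 and 24.8), and 5 of the 10 passed its adjusted p (Cldn5, Kdr and Tek towards replicate 1, Slc2a1 and Mfsd2a towards replicate 2), against a background of 10.3%. Slco1a4, Abcb1a and Ly6c1, whose adjusted p lay just under 0.05 in the gene table, did not pass there. The levels of the second table were higher throughout, since the median protein-coding gene at 1 TPM or more had a log2 ratio of -0.76 between the first table and the second. Relative to that shift Pecam1 (-0.47) and Slc2a1 (-0.39) were lower in the first table than the rest, and the other 8 lay between 0.03 and 0.21. The 4 highest genes were the same in both tables, and the leading transcript was the same for 8 of the 10, the exceptions being Pecam1 and Ly6c1.

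Markers of other cells that touch the vessel were set beside these values. The 9 pericyte genes had a median log2 ratio of 0.41, with 3 higher in replicate 1 by the adjusted p (Pdgfrb, Rgs5 and Atp13a5) and none in replicate 2, and summed to 68.4 TPM in replicate 1 and 63.1 TPM in replicate 2. The receptor gene Pdgfrb, needed for pericyte recruitment, had 7.04 and 4.89 TPM, Rgs5 22.4 and 19.0 TPM, Atp13a5 5.28 and 4.15 TPM and Vtn, which did not pass, 24.2 and 27.7 TPM. Red blood cell genes, led by Hbb-bs (128.3 and 97.5 TPM) and Hba-a1 (121 and 96.0 TPM), summed to 360.1 and 285 TPM, with 3 of 5 higher in replicate 1, though 4 of the 5 share reads with a near copy. In the opposite direction lay the fibroblast and meninges genes, of which 4 of 8 were higher in replicate 2 (Igf2, Col1a1, Col1a2 and Col3a1) and 1, Dcn, in replicate 1 by 1.69-fold; they summed to 72.2 and 79.3 TPM. The highest of these were Igf2, with 31.3 and 41.9 TPM, and Dcn, with 23.9 and 14.2 TPM. Among choroid plexus genes, Ttr (transthyretin) was at 3.62 TPM in replicate 1 and 179 TPM in replicate 2, Kl at 4.03 and 5.14 TPM, Prlr at 1.55 and 2.73 TPM and Folr1 at 0.23 and 1.94 TPM. Clic6 (0.17 and 1.46 TPM), Aqp1 (0.08 and 0.97), Kcnj13 (0.08 and 1.35), Slc4a5 (0.02 and 1.10) and Otx2 (0.43 and 0.89) were also apart by the adjusted p and 1.5-fold, like Ttr and Folr1. Smooth muscle genes (20.8 and 19.8 TPM in all, 0 of 4 passing either the adjusted or the unadjusted p), microglial genes (143.8 and 146 TPM, 1 of 8) and astrocyte genes (1117 and 1123 TPM, 2 of 6) were nearly level. The highest were the astrocyte genes Slc1a2 (742.7 and 739 TPM), Slc1a3 (162 and 164), Gja1 (109 and 112) and Aqp4 (43.3 and 47.9), and the microglial genes Csf1r (27.97 and 29.2), Ctss (23.2 and 21.6), C1qb (19.0 and 20.3) and C1qa (18.7 and 20.1). The part of any of these cells in the ratios of the 10 genes was not tested.

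**Figure D5:**
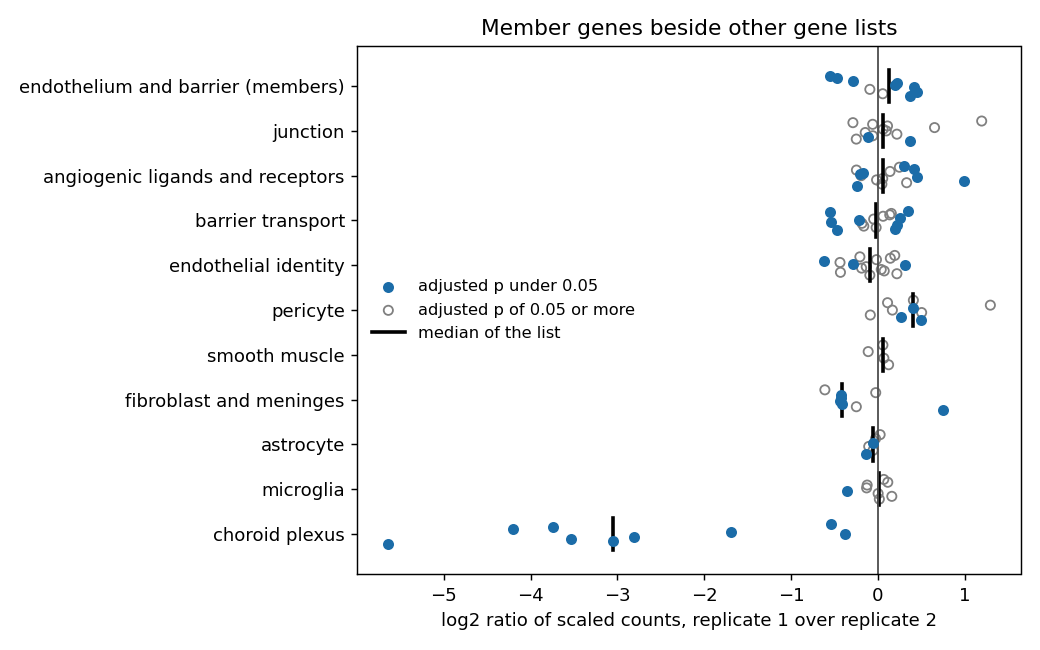
Log2 ratio of scaled counts, replicate 1 over replicate 2 (horizontal axis), for every tested gene of each list (rows), filled where the adjusted p was under 0.05, with the list's median as a bar. The 10 endothelial and barrier genes lie on both sides of 0 between -0.55 and 0.45, and the choroid plexus genes reach -5.65.

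Endothelial genes outside the 10 were examined in the same way. Of the 15 endothelial identity genes, 14 were at 1 TPM or more in both libraries, and 1 was higher in replicate 1 by the adjusted p (Egfl7, 29.1 TPM against 22.2 TPM in replicate 2) and 2 in replicate 2 (Ly6c1 and Ctla2a). Itm2a had 16.7 and 16.6 TPM. Ctla2a, with 5.33 and 7.53 TPM, reached 1.53-fold, but it shares reads with a near copy and did not pass in the second table. Over the 47 junction, receptor, transport and identity genes that are not among the 10, 5 passed towards replicate 1, 7 towards replicate 2 and 35 did not, with a median log2 ratio of -0.01; 11.4% of all genes passed, and 16.1% of those with a mean count of at least 200. Summed TPM of these 47 was 539 in replicate 1 and 548 in replicate 2, and that of the 10 was 146 and 158. Relative to their size, both sums differed less between the libraries than Slc2a1 did, which is itself part of the sum of the 10.

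The promoters of the genes at both ends of the ratios are shown for their sequence alone, since no binding or chromatin data were used. Each runs from 250 bases before to 50 bases after the RefSeq start (GRCm38.p6, the mm10 assembly), on the minus strand, 5' to 3'. Capitals mark the letters AGGAAG, the core bound by ETS factors, or GGGCGG, the GC box bound by Sp factors, on either strand.

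Kdr (chr5:75978406-75978705): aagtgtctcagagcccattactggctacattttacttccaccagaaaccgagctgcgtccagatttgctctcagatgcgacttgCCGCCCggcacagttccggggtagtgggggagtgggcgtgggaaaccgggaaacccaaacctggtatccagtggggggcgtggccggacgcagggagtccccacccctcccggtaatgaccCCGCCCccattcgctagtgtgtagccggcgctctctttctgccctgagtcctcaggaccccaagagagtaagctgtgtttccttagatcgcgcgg

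Mfsd2a (chr4:122961139-122961438): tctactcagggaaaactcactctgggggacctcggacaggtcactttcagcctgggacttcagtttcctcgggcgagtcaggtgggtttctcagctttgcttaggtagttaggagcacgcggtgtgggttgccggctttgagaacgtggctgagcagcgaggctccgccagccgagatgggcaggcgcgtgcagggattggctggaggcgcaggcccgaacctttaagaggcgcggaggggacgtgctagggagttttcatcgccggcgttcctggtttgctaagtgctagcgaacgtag

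The Kdr window holds GGGCGG at both capitalised places, read on the opposite strand, and the Mfsd2a window holds neither motif. Over the 9 of the 10 genes with a RefSeq promoter, AGGAAG occurred for 4 (Abcb1a, Flt1, Ly6c1 and Slco1a4), against 35.4% of all 32851 promoters, and GGGCGG for 4 (Cldn5, Flt1, Kdr and Slc2a1), against 35.7%. TATAAA occurred for 3 (13.6% of all), the forkhead letters TGTTTAC for 1, Abcb1a (3.65%), and the TCF and LEF letters CTTTGAT for 0 (3.73%); matches were counted on both strands and overlaps were allowed. The RefSeq window of Abcb1a (chr5:8566841-8567140) lies upstream of the start of Abcb1a-201 at chr5:8660077, so its matches and CpG are not those at the start of the transcript measured. The windows fell into a CpG-rich and a CpG-poor set: Flt1 had 29 CpG, Mfsd2a 22, Kdr 19, Slc2a1 18 and Cldn5 12, while Tek had 3, Abcb1a 2, Slco1a4 1 and Ly6c1 1 and 0 in its 2 entries, against a median of 7 over all promoters. Among the CpG-rich genes, Kdr, Cldn5 and Flt1 had log2 ratios above 0, and Mfsd2a and Slc2a1 below 0. Among the CpG-poor genes, Tek, Abcb1a and Slco1a4 had log2 ratios above 0, and Ly6c1 below 0. Whether the side of the ratio goes with CpG was not tested.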

How the data were processed

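Each of the 2 libraries had a gene table, a first transcript table and a second transcript table, all deposited by the authors. Per the file headers, the gene table holds an expected count and TPM and has the columns that RSEM writes, and the first transcript table adds each transcript's percent of its gene (IsoPct, deposited by the authors). The second table, per the file headers, holds an estimated count and TPM with the columns that kallisto writes. A description deposited with the files names mm10 and GENCODE M21 as the reference. Which programs and versions made them, with which aligner and strand setting, is not given in the sources used here. Values of overlapping genes on opposite strands are therefore uncertain. Deposited values were used as they stand, with expected counts rounded to whole numbers for the test.

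ERCC transcripts held 0.421% and 0.408% of the counts in replicates 1 and 2, numeric identifiers 2.75e-05% and 1.34e-05%, and the phage phiX 0 and 1 counts. These stayed out of gene counts and tests. Library sizes were scaled by TMM (edgeR 4.0.16, R 4.3.3). With 1 library from each animal no residual degrees of freedom remain, so no count model was fitted. Each gene's share of replicate 1 was set against the scaled library sizes with an exact two-sided binomial test (SciPy 1.17.1), adjusted by the Benjamini-Hochberg method over all 18270 genes with a mean count of at least 10, and called at adjusted p under 0.05 and at least 1.5-fold. Intervals are 95% Clopper-Pearson intervals.

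The 10 genes and the 15 lists beside them (junction, angiogenic ligands and receptors, barrier transport, endothelial identity, barrier Wnt signalling, caveolae and fenestrae, artery and vein, pericyte, smooth muscle, fibroblast and meninges, choroid plexus, astrocyte, microglia, red blood cell, paralogs) were chosen with earlier results of these data known. Named genes were the 10 in full, the ligand and receptor genes, the paralogs, the 4 highest of the other lists and any list gene called. Hba-a2 and Hbb-bt, among the 4 highest of the red blood cell list, were left out of the text above. The further genes named (Ocln, Cdh5, Slc16a1, Abcc4, Atp13a5, Col3a1, Ctla2a and the others that passed the adjusted p) were picked after their values were seen. Transcripts were named at 10% or more of their gene in a library and table, and every Flt1 transcript was. Genes were marked as sharing reads where the authors' posterior standard deviation reached 1% of the count, and 0 of the 10 were. Promoters came from RefSeq (GRCm38.p6), where 9 of the 10 matched by symbol and Pecam1 had no entry. DESeq2 1.42.0 gave size factors for an alternative.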

Additional observations from a re-analysis of the deposited data

How the results depend on the processing

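With 2 libraries of 1 group, leaving out a library leaves no ratio, and no difference between animals can be set against a spread within them. No paired analysis was possible because there is only 1 group. Against 346 genes apart of 18270 tested, a mean count of at least 100 gave 113 of 12541. Leaving out genes that share reads gave 216 of 16346. In both, the share of tested genes that were apart fell as well as their number. The adjusted p alone gave 2078 and a fold limit lowered to 0.32 on the log2 scale gave 682. Of the 10 genes, 0 were apart as reported, 1 (Mfsd2a) with ERCC spike-in totals, 8 by the adjusted p alone and 5 at the lowered fold limit; no other alternative moved this count from 0. Their median log2 ratio of 0.13 ranged from 0.07, on the TPM scale, to 0.14. The soluble share of Flt1, 31.3%, was 34.5% in the second table, 39.7% over coding transcripts and 34.95% of expected counts, and 29.8% and 32.8% with only replicate 1 or only replicate 2. All 10 genes were at 1 TPM or more in either library alone. Of 70 single-gene ratios under these alternatives 0 changed sign and 7 no longer passed the adjusted p: Slco1a4 (ERCC totals, no count minimum, second table), Abcb1a (ERCC totals, second table) and Ly6c1 (no count minimum, second table). With ERCC totals 6 of the 10 passed the adjusted p.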

Other observations

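Genes of the Wnt pathway that induces the barrier were present in both libraries. The ligand genes Wnt7a, with 9.17 TPM in replicate 1 and 9.15 TPM in replicate 2, and Wnt7b, with 18.7 and 19.3 TPM, were expressed beside the endothelial co-receptor genes Adgra2 (GPR124, 3.31 and 3.71 TPM) and Reck (2.94 and 2.97 TPM). Fzd4, the receptor for norrin, had 2.68 and 3.56 TPM and the co-receptor gene Lrp6 22.7 and 21.7 TPM; these were the 2 of the 14 genes that passed the adjusted p, both towards replicate 2 on counts, and for Lrp6 the TPM ran the other way. Ctnnb1, encoding beta-catenin, was the highest at 228.1 and 227.7 TPM, and Apcdd1, which encodes an inhibitor of Wnt signalling, had 13.3 and 14.1 TPM. The median log2 ratio of the 14 was -0.06.

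The caveola genes Cav1 (9.05 and 9.70 TPM), Cav2 (9.02 and 7.87 TPM), Cavin1 (6.88 and 5.73 TPM) and Cavin2 (2.09 and 3 TPM) were measured with Plvap, the gene of the diaphragm protein of fenestrated capillaries, at 2.27 and 2.65 TPM. Of these 5, Cavin2 passed the adjusted p, towards replicate 2. Of the 8 artery and vein genes, 0 passed the adjusted p of the exact binomial test and 1 had an unadjusted p under 0.05. The venous regulator gene Nr2f2 had 21.4 and 20.0 TPM, the arterial ligand gene Efnb2 14.7 and 13.1 TPM, the adhesion gene Vcam1 9.32 and 9.62 TPM and the venous receptor gene Ephb4 2.08 and 1.80 TPM; Nr2f2, Efnb2 and Vcam1 are also made by cells outside vessels. Among the smooth muscle genes Myl9 had 7.14 and 6.71 TPM, Acta2 6.78 and 6.61 TPM, Tagln 4.43 and 3.69 TPM and Myh11 2.28 and 2.55 TPM.

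None of the 12 paralogs of the 10 genes passed the adjusted p among the 9 that were tested, and 2 of these 9 had an unadjusted p under 0.05. Their median log2 ratio was 0.23.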
